A study of Mus musculus with 12 samples.

Results

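The 8 genes described here, Hmgcs1, Idi1, Fdft1, Sqle, Lss, Cyp51, Srebf2 and Insig1, belong to the cholesterol synthesis pathway and its control, and they were chosen by symbol from 55335 genes listed in an RNA-seq experiment. All 8 were found and all 8 passed the filter on low counts, which left 14357 genes to test. On build GRCm38 (mm10), GENCODE M21 places Hmgcs1 (ENSMUSG00000093930) at chr13:119690379-119708260, Idi1 (ENSMUSG00000058258) at chr13:8885501-8892451, Fdft1 (ENSMUSG00000021273) at chr14:63145150-63179578 and Sqle (ENSMUSG00000022351) at chr15:59315077-59331192. It places Lss (ENSMUSG00000033105) at chr10:76531588-76557138, Cyp51 (ENSMUSG00000001467) at chr5:4081145-4104746, Srebf2 (ENSMUSG00000022463) at chr15:82147181-82205379 and Insig1 (ENSMUSG00000045294) at chr5:28071363-28078662. Fdft1 and Cyp51 lie on the minus strand and the other genes on the plus strand. The cells were mouse bone marrow-derived dendritic cells (BMDC), grown from marrow with the cytokine GM-CSF for 6 days. The mice were C57BL/6 and carried CreER, a Cre recombinase that tamoxifen activates, which the methods of the study place at Rosa26, with an intact Ctcf gene. All 4 groups share that genotype, and no cells without CreER are among them. According to the methods, floating cells were harvested and selected with CD11c beads, and 4-OH-tamoxifen was used in the culture system to delete Ctcf in other mice. The study states that it served to remove the Ctcf alleles in knockout but not in WT cells. That wording does not settle whether WT cultures received 4-OH-tamoxifen, and it does not name the JSH-23 groups. The group WT received neither of the agents named next. WTL received 100 ng/ml of lipopolysaccharide (LPS), a bacterial outer membrane component that activates dendritic cells, for 3 h. WT + JSH23 received 100 µM JSH-23, a small molecule that blocks nuclear entry of the NF-κB subunit RelA, for 3 h, and WTL + JSH23 received JSH-23 for 3 h and then LPS for 3 h. If the WT + JSH23 cells were harvested after those 3 h, the JSH-23 groups also differ in time since JSH-23. That difference could then not be told apart from LPS. The labels do not say whether the groups without JSH-23 received its solvent. Each group held 3 libraries, called biological replicates in the methods. They were numbered 4 to 6 in WT and WTL and 1 to 3 in both JSH-23 groups, so that any difference between these 2 sets of libraries cannot be told apart from the effect of JSH-23.

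Cells make cholesterol from acetyl-CoA along the mevalonate pathway. The transcription factor SREBP-2, encoded by Srebf2, is held in the endoplasmic reticulum by INSIG proteins while sterols are plentiful. When sterols run low, it is cut free and raises transcription of the pathway enzymes and of Insig1 itself. In macrophages and dendritic cells exposed to bacterial products, sterol synthesis and oxysterol production are known to be altered together with the antiviral response.

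Total expected counts (read pairs per gene as estimated by RSEM) ran from 24664724 to 34837847 per library. Levels are given as CPM, which are counts relative to the size of the library, after TMM scaling, which trims the most extreme genes before it sets a factor for each library, and the factors lay between 0.859 and 0.880 in WTL and between 1.08 and 1.095 in WT, so the choice of scaling matters for small changes with LPS. Of the dendritic cell markers, all 10 were expressed, with a summed level of 16810 to 21980 CPM over the libraries. All 10 macrophage markers were expressed as well, at 2772 to 2943 CPM in WT, 3241 to 3322 in WTL, 2174 to 2199 in WT + JSH23 and 2583 to 2692 in WTL + JSH23, and Csf1r reached 1140 CPM in WT. The 8 neutrophil markers summed to at most 62.9 CPM, with Ly6g and Elane under 1 CPM in every library, and the 5 lymphocyte and 3 erythroid markers stayed under 1 CPM each. The 4 mast cell and basophil markers summed to at most 8.10 CPM. The summed macrophage level thus moved with both agents, and its part in the results on the 8 genes was not tested. In such bulk samples, fewer cells of a type and less RNA per cell cannot be told apart.

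Promoter sequence was at hand for 6 of the 8 genes, in 300-base RefSeq windows on build GRCm38.p6. The windows were searched on both strands for the sterol regulatory element core TCACNCCAC, the CCAAT box bound by NF-Y, a usual partner of SREBP-2, the Sp1 box GGGCGG, the E-box CANNTG with its form CACGTG, and the NF-κB consensus. The stretches upstream of the annotated transcription start are shown for 4 genes: Hmgcs1 and Srebf2, whose windows held sterol element letters, Idi1, which had the largest rise with LPS among the 8, and Lss, which fell. They are written 5′ to 3′ along the gene, and capitals mark TCACNCCAC, TCACCCCA and CCAAT, which reads ATTGG on the other strand.
Hmgcs1, chr13:119690101-119690350, plus strand: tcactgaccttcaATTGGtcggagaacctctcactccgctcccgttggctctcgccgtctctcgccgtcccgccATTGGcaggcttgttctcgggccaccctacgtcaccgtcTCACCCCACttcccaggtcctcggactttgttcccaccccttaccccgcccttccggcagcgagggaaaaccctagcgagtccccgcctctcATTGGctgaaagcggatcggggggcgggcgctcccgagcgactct
Srebf2, chr15:82147019-82147180, plus strand: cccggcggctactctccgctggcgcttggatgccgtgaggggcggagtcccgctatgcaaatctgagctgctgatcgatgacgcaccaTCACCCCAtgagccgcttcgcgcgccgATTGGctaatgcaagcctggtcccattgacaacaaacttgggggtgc
Idi1, chr13:8885356-8885500, plus strand: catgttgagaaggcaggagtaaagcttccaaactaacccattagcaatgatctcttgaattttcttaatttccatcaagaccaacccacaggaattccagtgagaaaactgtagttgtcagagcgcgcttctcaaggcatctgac
Lss, chr10:76531355-76531587, plus strand: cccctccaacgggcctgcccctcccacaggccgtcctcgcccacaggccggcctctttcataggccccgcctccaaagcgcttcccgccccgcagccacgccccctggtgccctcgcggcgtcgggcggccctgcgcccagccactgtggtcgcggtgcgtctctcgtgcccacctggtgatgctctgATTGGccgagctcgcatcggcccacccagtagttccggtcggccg

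TCACNCCAC occurred in the Hmgcs1 window only, 137 bases before the RefSeq start, while 1.24% of 32841 mouse windows held it. The shorter TCACCCCA, a search added after the windows had been seen, occurred in Hmgcs1 and, 162 bases before the start, in Srebf2, and in 1.56% of all windows. CCAAT was found in 6 of 6 windows against 37.4% of all windows, with 4 copies in Hmgcs1, and GGGCGG in 6 of 6 against 35.7%. The 2 CCAAT copies of Idi1 lay between its annotated starts and are outside the stretch shown. CANNTG was found in 5 of 6 windows against 72.3%, and CACGTG in Insig1 only, against 7.15%. The NF-κB consensus matched 0 of 6 windows and 4.51% of all windows. These letter matches describe the windows and do not show binding.

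In resting cells the 8 genes were well expressed and the replicates were close. Idi1, the isomerase that makes the active isoprenoid unit dimethylallyl diphosphate, was highest per length, at 440 TPM (transcripts relative to the total per library) in WT. Hmgcs1, the cytosolic HMG-CoA synthase, followed at 148 TPM and Srebf2 at 84.7 TPM. Insig1, Cyp51 (lanosterol 14α-demethylase), Sqle (squalene epoxidase) and Fdft1 (squalene synthase) lay between 38.2 and 52.4 TPM. Lss, lanosterol synthase, was lowest at 22.05 TPM. The TPM of Lss is less certain than the others because the effective length that RSEM used for it varied 1.66-fold between libraries, against at most 1.06-fold for the other 7 genes.

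**Figure D1:**
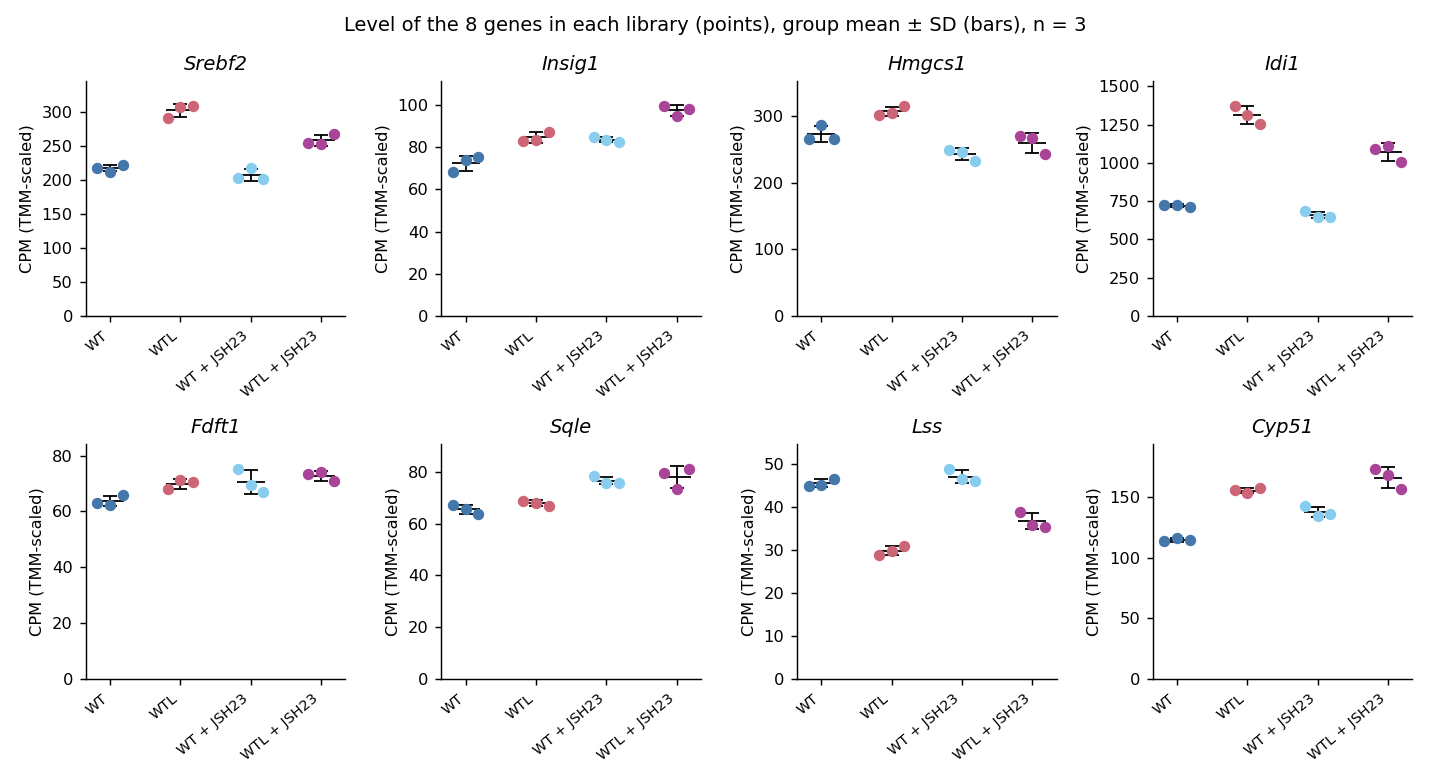
Level of each of the 8 genes (TMM-scaled CPM, linear axis from 0) in the 12 libraries, in 4 groups of 3. Points are libraries, and bars are the group mean ± SD. Idi1 and Srebf2 are high in both groups with LPS, Lss is low in both, and Sqle is higher in every library with JSH-23 than in any without it.

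The comparison of WTL with WT asks how 3 h of LPS changed these genes. Idi1 rose most, 1.82-fold, Srebf2 and Cyp51 rose 1.39-fold and 1.36-fold, and Lss fell to 29.8 from 45.6 CPM. Of the 8 genes, 6 were higher at an adjusted p under 0.05 (edgeR, against 31.0% of all genes tested) and 1 was lower (against 34.7%). The median log2 fold change of the 8 was 0.20, beside -0.05 for all genes tested. No gene of the 8 passed 2-fold by edgeR or DESeq2, whereas 7.36% of all genes were higher and 9.09% lower by that amount, and 7 of the 8 had an unadjusted p under 0.05. The share of all genes at that unadjusted threshold was not counted, here or in the comparisons below. It cannot lie below the shares called after adjustment, so these unadjusted counts only describe the 8 genes.

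Srebf2 gave 218, 213 and 222 CPM in WT and 292, 308 and 309 CPM in WTL. The groups did not overlap, and the log2 fold change was 0.48 (SE 0.0401, edgeR adjusted p = 1.03e-09). How many of all genes tested had groups without overlap was not counted. Such separation is therefore given, here and below, only as a description of the libraries. Insig1, the sterol-dependent anchor that holds SREBP-2 back, gave 68.4, 73.8 and 75.1 CPM in WT and 82.9, 83.4 and 87.4 CPM in WTL. All 3 WTL libraries thus lay above the WT libraries on the TMM scale (log2 0.22, edgeR adjusted p = 0.000117), but with TPM or with library totals the sign was the opposite.

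Among the enzymes of the upper pathway, Idi1 stood apart from Hmgcs1. Idi1 measured 726, 725 and 709.8 CPM in WT and 1369.8, 1312 and 1252 CPM in WTL. The lowest WTL library was far above every WT library, with a log2 fold change of 0.86 (SE 0.0424, edgeR adjusted p = 1.13e-13) that exceeded those of 90.8% of all genes tested. Hmgcs1 measured 265, 286 and 266 CPM in WT and 301, 305 and 315 CPM in WTL. Its groups did not overlap either, but the rise was small (log2 0.17, SE 0.0444, edgeR adjusted p = 0.00194), it did not pass with upper quartile scaling (0.0841), and its sign turned with TPM or library totals. Both genes had fractional counts in all 12 libraries, which shows that RSEM shared some of their reads with other loci, so their levels are less certain than those of Sqle, Insig1 and Srebf2, which had none. Fractional counts also occurred for Fdft1 in 11 libraries, for Cyp51 in 5 and for Lss in 4.

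The enzymes from squalene to lanosterol and beyond did not move together. Fdft1 had 62.3 to 65.8 CPM in WT and 67.9 to 71.2 CPM in WTL, a log2 difference of 0.14 (edgeR adjusted p = 0.015) whose sign turned with TPM or library totals. It lost its call without WT replicate 4 (adjusted p = 0.0511), WT replicate 5 (0.0585) or WTL replicate 5 (0.0604), and with upper quartile scaling (0.336). Sqle, a rate-limiting oxygenase of the pathway, had 63.7 to 67.3 CPM in WT and 67.0 to 69.0 CPM in WTL. These ranges overlapped, and its log2 difference was 0.05 (95% interval -0.05 to 0.16, edgeR adjusted p = 0.296), while it was called lower with TPM and with library totals (log2 -0.27 and -0.28).

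Lss and Cyp51 act in successive steps, and they went in opposite directions. Lss gave 44.9, 45.3 and 46.6 CPM in WT and 28.8, 29.9 and 30.8 CPM in WTL. All WTL libraries were below all WT libraries, and the level fell by 0.61 on the log2 scale (SE 0.0499, edgeR adjusted p = 6.03e-10). Cyp51 gave 113, 116 and 114 CPM in WT and 156, 153 and 157 CPM in WTL, again without overlap, with a log2 fold change of 0.44 (SE 0.0411, edgeR adjusted p = 5.71e-09). With TPM the rise of Cyp51 was 0.09 and did not pass (limma adjusted p = 0.117).

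**Figure D2:**
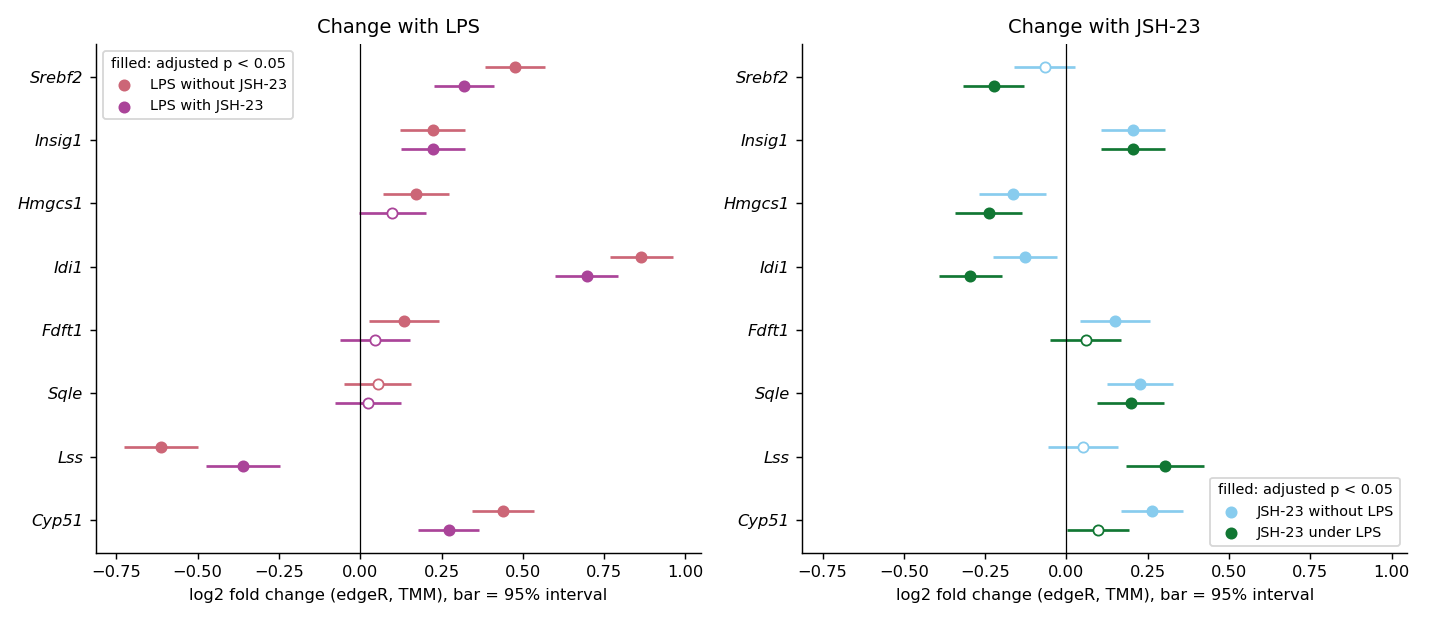
Log2 fold change of each of the 8 genes on the TMM scale (horizontal axis), with its 95% interval, for LPS (left panel) and JSH-23 (right panel). Filled points have an adjusted p under 0.05. Idi1 is at 0.86 and 0.70 and Lss at -0.61 and -0.36 with LPS, and the left-panel signs of Hmgcs1, Insig1, Fdft1 and Sqle depend on the scaling.

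The scaling shifted all genes in this comparison. The median log2 change over all genes was -0.05 with TMM, -0.26 with TPM and -0.38 with library totals and no TMM. Taken relative to that median within each of 5 scalings, Idi1 was higher by 0.78 to 0.91, Srebf2 by 0.42 to 0.52, Cyp51 by 0.35 to 0.49, Insig1 by 0.10 to 0.27, Hmgcs1 by 0.10 to 0.22 and Fdft1 by 0.05 to 0.18. Sqle ranged from -0.01 to 0.10 and Lss from -0.72 to -0.57. Relative to the typical gene, 6 of the genes were higher and Lss lower in each of the 5 scalings, and the sign for Sqle varied. The scalings other than TPM differ by 1 factor per library, which the subtraction removes, so their agreement was fixed in advance. Only the TPM fit, which also uses effective lengths, was a separate check.

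**Figure D3:**
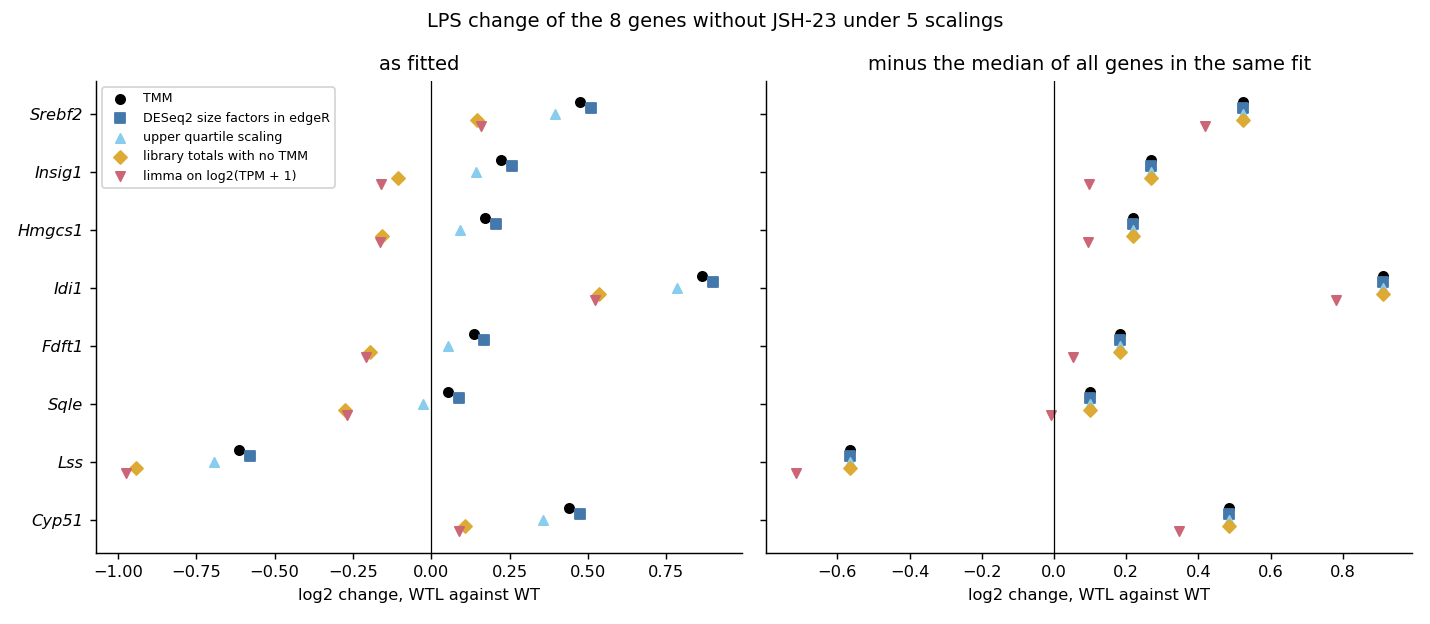
LPS change (log2, WTL against WT) of the 8 genes under 5 scalings, as fitted (left) and after subtracting the median of all genes in the same fit (right). Hmgcs1, Insig1, Fdft1 and Sqle cross 0 in the left panel between scalings, and in the right panel only Sqle does. In the right panel the scalings other than TPM nearly coincide by construction, as the subtraction removes the factor per library.

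Ratios of 2 genes within a library need no scaling at all, and 3 were formed after the values had been seen, as a description. The count of Idi1 over that of Lss was 15.8 ± 0.501 in WT, 44.0 ± 3.50 in WTL, 13.98 ± 0.0379 in WT + JSH23 and 29.1 ± 1.65 in WTL + JSH23 (mean ± SD, n = 3). The isomerase thus gained on lanosterol synthase with LPS in both settings, and the WTL libraries (40.6 to 47.6) stood above the WTL + JSH23 libraries (28.1 to 31.0). Hmgcs1 over Sqle was 4.15 ± 0.208 in WT and 4.51 ± 0.172 in WTL but 3.16 ± 0.0925 in WT + JSH23 and 3.34 ± 0.333 in WTL + JSH23. Srebf2 over Insig1, the factor over its anchor, was 3.01 ± 0.159 in WT, 3.58 ± 0.0938 in WTL, 2.49 ± 0.119 in WT + JSH23 and 2.66 ± 0.0848 in WTL + JSH23.

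The same LPS comparison in cells given JSH-23 (WTL + JSH23 against WT + JSH23) called fewer of the 8 genes. It found 4 of the 8 higher (edgeR, against 27.4% of all genes) and Lss lower (against 27.1%), and 0 past 2-fold by edgeR or DESeq2 (5.85% of all genes higher and 4.49% lower), with 6 of the 8 at an unadjusted p under 0.05. The median log2 fold change was 0.16, beside -0.02 for all genes. Idi1 gave 683, 649 and 646 CPM in WT + JSH23 and 1091, 1111 and 1003 CPM in WTL + JSH23, and Srebf2 gave 203, 218 and 202 CPM and then 255, 254 and 268 CPM. Neither gene overlapped between the groups, and both rose (log2 0.70 for Idi1 and 0.32 for Srebf2, edgeR adjusted p = 7.71e-12 and 8.14e-07).

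Cyp51 and Insig1 rose as well. Cyp51 gave 142, 134 and 136 CPM in WT + JSH23 and 173, 169 and 156 CPM in WTL + JSH23 (log2 0.27, edgeR adjusted p = 8.24e-06). Insig1 gave 84.8, 83.2 and 82.4 CPM and then 99.4, 94.6 and 98.1 CPM (log2 0.22, edgeR adjusted p = 0.000148), with a negative sign under library totals. Lss gave 49.0, 46.5 and 46.1 CPM and then 38.8, 35.8 and 35.5 CPM, a fall by 0.36 on the log2 scale (edgeR adjusted p = 2.16e-06). Groups did not overlap for any of these 3 genes. With TPM none of the 3 passed (limma adjusted p = 0.0799 for Cyp51, 0.804 for Insig1 and 0.0751 for Lss), and with library totals Cyp51 and Srebf2 did not either (edgeR adjusted p = 0.508 and 0.0977). Hmgcs1 (log2 0.10, edgeR adjusted p = 0.0699), Fdft1 (0.04, 0.441) and Sqle (0.02, 0.665) did not pass, and Hmgcs1 passed without WTL + JSH23 replicate 3 (0.0051), the library in which it was lowest of its group at 242 CPM.

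Whether the LPS change itself differed with JSH-23 was tested by the interaction, which subtracts the LPS change seen without JSH-23 from that seen in its presence. Any difference in time since JSH-23 between the JSH-23 groups would enter this value as well. Of the 8 genes, 1 had a higher value at an adjusted p under 0.05 (edgeR, against 9.54% of all genes) and 0 a lower value (against 8.44%). DESeq2 called 1 higher and 3 lower, against 3.63% and 5.49% of the 26118 genes it fitted, of which 14179 had no adjusted p. By edgeR, 1 and 3 had an unadjusted p under 0.05. Lss passed, with an interaction of 0.25 (SE 0.0699, 95% interval 0.09 to 0.41, edgeR adjusted p = 0.0157), meaning a smaller fall with LPS when JSH-23 was present. Without WTL + JSH23 replicate 1, the highest Lss library of its group at 38.8 CPM, its adjusted p was 0.057.

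Idi1, Cyp51 and Srebf2 had interactions of -0.17, -0.17 and -0.16, each just outside the threshold (edgeR adjusted p = 0.0551, 0.0503 and 0.0602). They passed with DESeq2 (0.0106, 0.0117 and 0.0112) and lay farther from it with library totals (0.383, 0.415 and 0.464) and with TPM (0.859, 0.908 and 0.761), where the sign for Cyp51 turned to 0.02. Leaving out single libraries moved them across the threshold as well: Srebf2 passed without WTL replicate 4 or WTL + JSH23 replicate 3 (0.0471 and 0.0207), Idi1 without WTL replicate 6 or WTL + JSH23 replicate 2 (0.0252 and 0.0321), and Cyp51 without WT + JSH23 replicate 2 or WTL + JSH23 replicate 1 (0.0444 and 0.0343). The interaction of Insig1 had a 95% interval of -0.14 to 0.14, that of Sqle -0.17 to 0.11, that of Hmgcs1 -0.22 to 0.07 and that of Fdft1 -0.24 to 0.06.

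JSH-23 before LPS (WTL + JSH23 against WTL) split the genes. Of the 8, 3 were higher (edgeR, against 24.5% of all genes) and 3 lower (against 24.2%), and 0 passed 2-fold by edgeR or DESeq2 (3.75% and 3.25% of all genes), while 7 had an unadjusted p under 0.05. The median log2 change was 0.08, beside 0.02 for all genes. Idi1 ranged from 1252 to 1369.8 CPM in WTL and from 1003 to 1111 CPM in WTL + JSH23, a fall with a log2 fold change of -0.30 (edgeR adjusted p = 4.93e-06). Hmgcs1 fell from at least 301 to at most 270.2 CPM (log2 -0.24, edgeR adjusted p = 0.000133), and Srebf2 from at least 292 to at most 268 CPM (log2 -0.22, edgeR adjusted p = 7.9e-05). Hmgcs1 and Srebf2 stayed negative but missed the threshold with library totals (edgeR adjusted p = 0.0513 and 0.0554) and with TPM (limma adjusted p = 0.0928 and 0.173).

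In the same comparison Lss rose, with 28.8 to 30.8 CPM in WTL and 35.5 to 38.8 CPM in WTL + JSH23 (log2 0.30, edgeR adjusted p = 4.9e-05). It remained below every WT library, which had at least 44.9 CPM. Insig1 rose by 0.20 (edgeR adjusted p = 0.000455) and Sqle by 0.20 (edgeR adjusted p = 0.000873). Cyp51 had a log2 difference of 0.10 (edgeR adjusted p = 0.0559), with an adjusted p of 0.0046 without WTL + JSH23 replicate 3, and Fdft1 had 0.06 (0.322). Both were called higher with library totals (edgeR adjusted p = 0.000153 and 0.00302), and Lss missed the threshold with TPM (limma adjusted p = 0.0848).

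JSH-23 alone (WT + JSH23 against WT) gave 4 of the 8 higher (edgeR, against 18.8% of all genes) and 2 lower (against 22.1%). None passed 2-fold by edgeR or DESeq2, against 2.43% and 2.94% of all genes, and 6 had an unadjusted p under 0.05. The median was 0.10 beside -0.01 for all genes. Cyp51 rose by 0.26 (edgeR adjusted p = 1.9e-05), Sqle by 0.23 (edgeR adjusted p = 0.000217) and Insig1 by 0.20 (edgeR adjusted p = 0.000538), and no WT library reached the WT + JSH23 libraries in any of these 3 genes. Hmgcs1 fell by 0.17 (edgeR adjusted p = 0.00476).

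The calls of 2 other genes in that comparison were lost when certain single libraries were left out. Fdft1 rose by 0.15 (edgeR adjusted p = 0.0125), but without WT + JSH23 replicate 1, its highest library at 75.2 CPM, the adjusted p was 0.112, and without WT replicate 5 it was 0.0548. Idi1 fell by 0.13 (edgeR adjusted p = 0.0197) and lost its call without WT replicate 4 (0.0605), WT replicate 5 (0.053), WT + JSH23 replicate 2 (0.0669) or WT + JSH23 replicate 3 (0.081), and with library totals (0.0885). With each of these libraries left out in turn, its log2 difference stayed between -0.12 and -0.11. Srebf2 had a log2 difference of -0.07 (95% interval -0.16 to 0.03) and Lss one of 0.05 (95% interval -0.06 to 0.16), and neither passed.

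The order of the 4 group levels differed between the genes. Idi1 ran WTL, WTL + JSH23, WT, WT + JSH23 (1311, 1068, 720.1 and 659 CPM), and each neighbour in that order differed (edgeR adjusted p at most 0.0197). Srebf2 had the same order (303, 259, 218 and 208 CPM), with WT and WT + JSH23 not told apart. Hmgcs1 was highest in WTL (307 CPM), which differed from WT (272 CPM), and the further steps from WT to WTL + JSH23 (259.9 CPM) and on to WT + JSH23 (243 CPM) did not pass.

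Cyp51 and Insig1 instead were highest with both agents. Cyp51 ran WTL + JSH23, WTL, WT + JSH23, WT (166, 155, 138 and 115 CPM), with the leading pair not told apart, and Insig1 had the same order (97.4, 84.6, 83.4 and 72.5 CPM), with the middle pair not told apart. Sqle lay at 78.1 and 76.8 CPM in the JSH-23 groups and at 68.1 and 65.6 CPM in the others, and only the step between these pairs passed (edgeR adjusted p = 0.00158). Fdft1 differed between neighbours only at the step from WTL (69.8 CPM) to WT (63.6 CPM). Lss ran in the reverse direction, with 47.2 CPM in WT + JSH23, 45.6 in WT, 36.7 in WTL + JSH23 and 29.8 in WTL, where the leading pair was not told apart.

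The genes whose 4 group means of log2 CPM lay closest to the mean profile of the 8, among 7690 protein-coding candidates, were Psmb3, Nop10, Dnajc10, Pigg and Eif3d, with root mean square differences of 0.00542 to 0.00887. The 8 genes themselves lay 0.0604 (Fdft1) to 0.354 (Lss) from that mean, so the mean profile describes few of them closely.

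A pair of members overlap other protein-coding genes on the opposite strand, and whether strand was used in the counting is not stated. Fdft1 shares 774 bases with Ctsb, which had 2433 CPM in WT and log2 changes of 0.04 with LPS alone, 0.23 with JSH-23 under LPS and 0.21 with JSH-23 alone. Its part in the small changes of Fdft1 was not tested. Cyp51 shares 166 bases with Akap9, which had 70.4 CPM in WT and log2 changes of -0.02, 0.23 and 0.12 in the same comparisons.

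The other enzymes of the pathway also changed in both directions. Of 14, LPS without JSH-23 raised 3 and lowered 7 on the TMM scale, with a median log2 change of -0.13, and it raised 1 and lowered 11 with library totals. Over all genes tested, the shares called higher and lower were 31.0% and 34.7% with TMM but 14.7% and 59.9% with library totals, and the median of the 14 lay 0.08 below that of all genes in both scalings. Dhcr7, which makes cholesterol from 7-dehydrocholesterol, fell by 1.43 (11.4 to 4.25 CPM), Tm7sf2, a sterol reductase, by 0.78 and Mvd, which precedes Idi1 in the pathway, by 0.62.

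With JSH-23 present, LPS raised 1 of the 14 and lowered 8 on the TMM scale, and 0 and 13 with library totals by edgeR (14.0% and 52.9% of all genes), and Dhcr7 fell by 1.22. The interaction passed for 4 of the 14 with TMM, 1 higher and 3 lower, including Fdps, which joins isoprenoid units after Idi1 (-0.35, edgeR adjusted p = 0.000536). JSH-23 under LPS raised 4 and lowered 3, the latter being Fdps, which fell by 0.49, and Nsdhl and Pmvk, which fell by 0.41 and 0.39. JSH-23 alone raised 3 and lowered 3, with Msmo1, a sterol demethylation enzyme, rising by 0.24 and Nsdhl, which acts in the same removal of methyl groups, falling by 0.26.

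**Figure D4:**
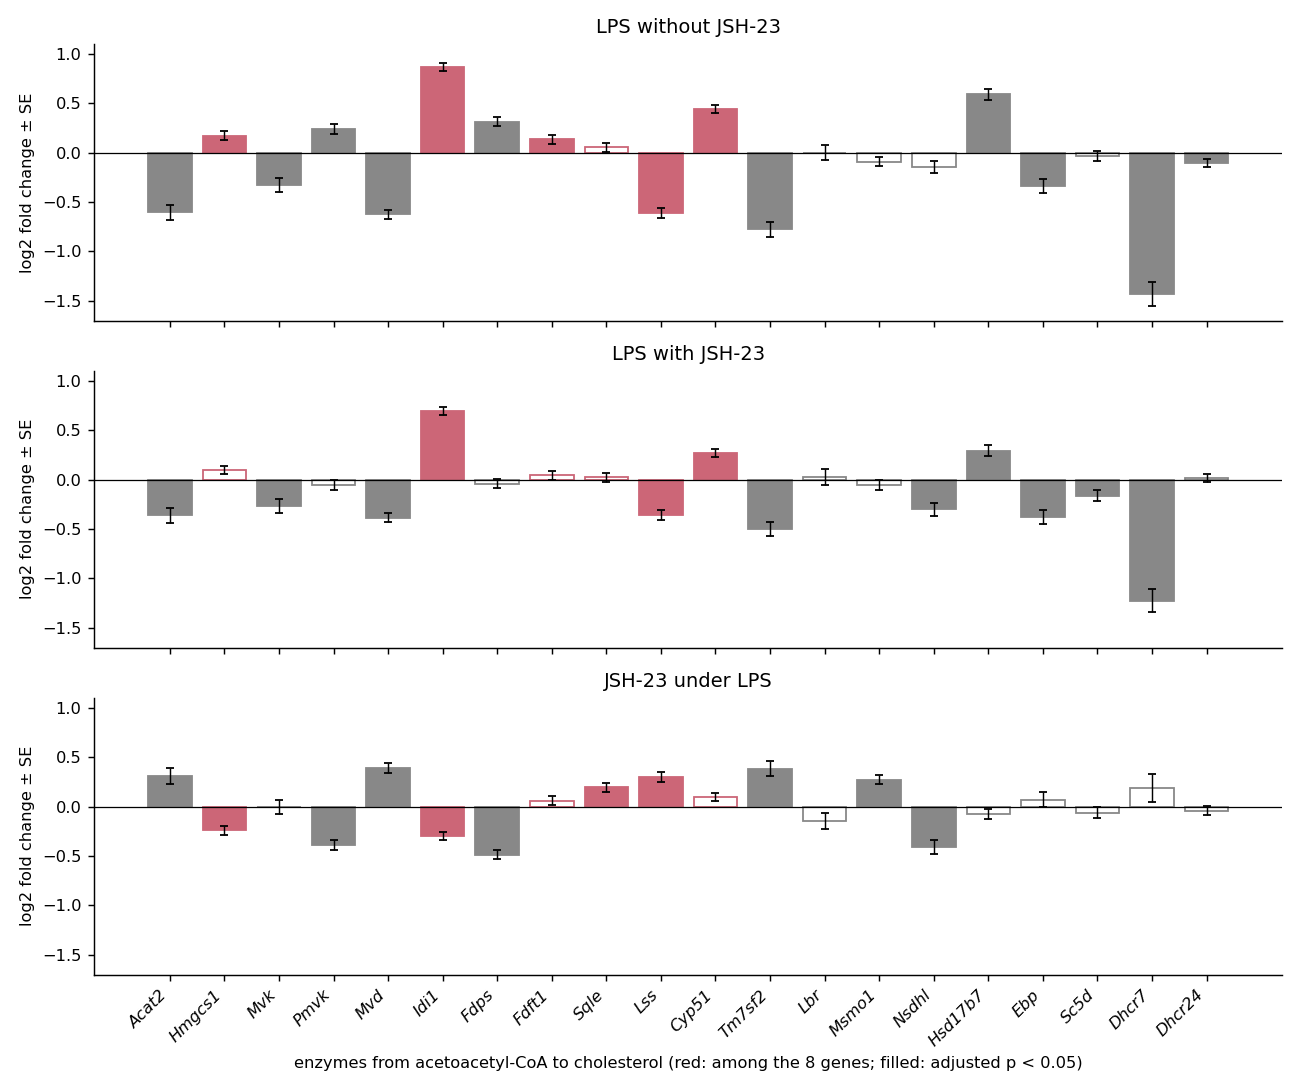
Log2 fold change ± SE on the TMM scale (vertical axis) of 20 cholesterol synthesis enzymes in approximate pathway order, for LPS without JSH-23, LPS with JSH-23 and JSH-23 under LPS. Red bars are 6 of the 8 genes described here, grey bars the other enzymes, and filled bars have an adjusted p under 0.05. Rises at Idi1 and Cyp51 stand beside falls at Mvd, Lss and Dhcr7, and small LPS changes such as those of Hmgcs1, Fdft1 and Sqle change sign with the scaling.

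All 14 listed genes that process SREBP or handle incoming sterol were tested. LPS without JSH-23 raised 4 and lowered 5 of the 14 with TMM (median -0.09), and 0 and 12 with library totals by edgeR, and the largest TMM changes were falls of 0.83 in Erlin1, of 0.70 in Npc1, which exports cholesterol from lysosomes, and of 0.47 in Erlin2. With JSH-23 present LPS raised 3 and lowered 6 with TMM (median -0.09), and 0 and 10 with library totals by edgeR, with Erlin1 at -0.61.

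JSH-23 under LPS raised 9 of these 14 (against 24.5% of all genes) and lowered 2 (against 24.2%), with a median of 0.18 beside 0.02 for all genes. The largest changes were in Npc1 (1.18), Insig2, the paralog of Insig1 (0.78), and Rnf139, which fell by 0.62. JSH-23 alone raised 5 and lowered 2 (median 0.09), led by Npc1 (0.73), Ubxn4 (0.65) and Insig2 (0.50). Insig2 thus rose by more than Insig1 did in both JSH-23 comparisons, but it fell by 0.35 with LPS without JSH-23 (edgeR adjusted p = 0.00027), opposite to the TMM-scaled change of Insig1, whose sign turns with TPM or library totals. The interaction passed for 3 higher and 1 lower, with Npc1 at 0.45.

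The fatty acid synthesis list, whose genes are mainly driven by SREBP-1, was more uniform. LPS without JSH-23 lowered 11 of its 13 genes and raised 2 (median -0.52), and 5 fell over 2-fold, while library totals lowered 11 and raised 0 by edgeR. Scd2 fell by 2.47, Lpin1 by 2.40 and Fads1 by 1.77. With JSH-23 present 9 fell and 2 rose (median -0.29), and Scd2 fell by 1.84, Lpin1 by 1.56 and Elovl6 by 1.52.

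JSH-23 under LPS raised 8 of these genes and lowered 1 (median 0.42), with Scd2 at 1.08, Fads1 at 1.02 and Acss2 at 0.99, and JSH-23 alone raised 7 and lowered 1 (median 0.19), with Me1 at 1.07. The interaction passed for 6 higher and 1 lower. Srebf1, the gene for SREBP-1, had a log2 difference of -0.06 with LPS without JSH-23 on the TMM scale (edgeR adjusted p = 0.48), was called lower with library totals (-0.39) and with TPM (-0.41), and rose by 0.36 with JSH-23 under LPS (edgeR adjusted p = 0.000144), opposite to Srebf2.

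Of 12 genes for sterol esterification, efflux and oxysterols, 11 were tested, Cyp7b1 failing that filter. LPS without JSH-23 raised 4 and lowered 6 (median -0.45) with TMM, and 1 and 8 with library totals. Ch25h, which makes the oxysterol 25-hydroxycholesterol, an inhibitor of SREBP processing, rose by 2.10 from 21.3 ± 1.05 to 91.0 ± 0.720 CPM, while Nceh1 fell by 1.94 and Soat1, which esterifies cholesterol, by 1.14. With JSH-23 present LPS raised 3 and lowered 7 (median -0.30), with Ch25h at 1.32, and the interaction passed for 4 higher and 1 lower, Ch25h having -0.78.

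JSH-23 under LPS raised 4 and lowered 4 of these genes (median -0.05), with Ch25h falling by 1.84, and JSH-23 alone raised 4 and lowered 5 (median 0.04), with Ch25h falling by 1.06 and Mylip, a ubiquitin ligase, rising by 0.81. Of the 10 genes of the non-sterol isoprenoid branch, LPS without JSH-23 raised 2 and lowered 5 (median -0.12) with TMM, and 1 and 8 with library totals. Nus1, a subunit of the dolichol-making enzyme, rose by 0.63, and Fntb, a farnesyltransferase subunit, fell by 0.95. LPS with JSH-23 raised 2 and lowered 2 (median -0.08), JSH-23 under LPS raised 2 and lowered 2 (median 0.07), JSH-23 alone raised 4 and lowered 2 (median 0.08), and the interaction passed for 1 higher and 1 lower.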

How the data were processed

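Poly(A) or rRNA-depleted RNA (the labels and the methods name different kits) was sequenced as paired reads. Trimming with Trim Galore, alignment to mm10 with STAR (2.6.0c per the labels) and quantification with RSEM were done by the authors, and the GENCODE release is not given in the sources used here. The deposited expected counts are RSEM estimates without normalization or filter, in which a read pair that matches several genes is shared among them. The deposited TPM values were computed by the authors from these counts and effective lengths.

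Symbols and positions came from GENCODE M21, on the same build. Expected counts were rounded, filtered with filterByExpr and scaled by TMM. Quasi-likelihood F-tests of edgeR 4.0.16 (R 4.3.3) used all 12 libraries with 1 mean per group and 8 residual degrees of freedom, and p values, two-sided, were adjusted by Benjamini-Hochberg over 14357 genes. SE is the absolute log2 change divided by the square root of F. CPM values are scaled counts. Between 7.75% and 8.52% of the genes listed had fractional counts in a library. No libraries were identical. The fit was tested on simulated counts.

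Alternatives were DESeq2 1.42.0, its size factors in edgeR, upper quartile scaling, no filter, limma 3.58.1 on log2(TPM + 1), a replicate block, leaving out each library and, chosen after seeing the data, library totals without TMM. The 8 genes, the gene lists and the tests were chosen with earlier results of these data known. Some genes of the lists are not reported here and were left out of their counts. Besides the 8 genes, the text takes its list genes from the 3 largest changes per list and comparison at an adjusted p under 0.05 with 1 CPM or more in the higher group. The genes of like pattern are the 5 nearest protein-coding genes with at least 10 CPM on average. Insig2 with LPS, Srebf1, and the overlapping genes Ctsb and Akap9 were named outside this rule after their values were seen. Reads are counted without molecular identifiers.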

Additional observations from a re-analysis of the deposited data

Results flagged for a closer look

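The LPS change of Lss differed with JSH-23, with an interaction of 0.252 on the log2 scale (edgeR adjusted p = 0.0157). It fell by 0.61 without JSH-23 and by 0.36 with it, in 3 libraries per group. Without WTL + JSH23 replicate 1 the adjusted p was 0.057.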

How the results depend on the processing

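The scaling decided the balance of the 8 genes. With limma on log2(TPM + 1), LPS without JSH-23 gave 2 higher and 5 lower, and LPS with JSH-23 gave 2 higher and 2 lower. JSH-23 under LPS gave 4 higher (against 29.5% of all genes) and 1 lower (against 13.7%). The interaction gave 0 higher (against 9.75%) and 0 lower (against 2.52%), and Lss had a limma adjusted p of 0.186 in it. With library totals and no TMM, LPS without JSH-23 gave 3 higher and 5 lower, and LPS with JSH-23 gave 1 and 4. JSH-23 under LPS gave 5 and 1 (against 38.0% and 15.6% of all genes), and JSH-23 without LPS gave 4 and 1 (against 22.8% and 18.7%). With TPM the LPS changes without JSH-23 that reversed were Hmgcs1 (-0.165), Sqle (-0.268), Insig1 (-0.162) and Fdft1 (-0.208), and with JSH-23 Sqle (-0.178) and Fdft1 (-0.149). With library totals they were Hmgcs1 (-0.158), Sqle (-0.277), Insig1 (-0.107) and Fdft1 (-0.195) without JSH-23, and Hmgcs1 (-0.141), Sqle (-0.215), Insig1 (-0.0163) and Fdft1 (-0.194) with it. The cause was not tested beyond the shift of all genes given above. For LPS without JSH-23, 13.3% of all genes were called higher and 54.3% lower with TPM, and 14.7% and 59.9% with library totals; with JSH-23 these were 13.8% and 41.4%, and 14.0% and 52.9%. Upper quartile scaling ended the LPS calls of Hmgcs1 (0.09, edgeR adjusted p = 0.0841) and Fdft1 (0.05, edgeR adjusted p = 0.336) without JSH-23. That left 4 higher, against 26.1% of all genes. The same scaling added a call for Cyp51 with JSH-23 under LPS (edgeR adjusted p = 0.0357) and turned the sign of 4 values not called in either fit.

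The interaction had 3 lower calls (Idi1, Srebf2 and Cyp51) with DESeq2, with its size factors in edgeR and with the replicate block, against 0 in the main fit. The shares of all genes called lower were 10.3% with the size factors and 9.81% with the block. For DESeq2 the share was 5.49% of the 26118 genes it fitted. Same-numbered libraries deviated together weakly but always positively (correlations 0.0142 to 0.0614), beside -0.0564 to 0.0355 for libraries of different numbers. Each WT and WTL library correlated best with its own number, while WT + JSH23 replicate 1 did not. The main fit did not take the numbers as pairs, and these weak correlations do not settle whether they are. The block raised the LPS calls with JSH-23 from 4 to 5 higher. Leaving out a library gave 5 to 6 higher calls for LPS without JSH-23, against 28.8% to 31.3% of all genes. LPS with JSH-23 then had 4 to 5 higher calls, against 25.2% to 27.2%, and JSH-23 under LPS 3 to 4, against 21.2% to 24.1%. JSH-23 without LPS had 3 to 4 higher calls, against 15.8% to 19.7%, and 1 to 2 lower calls, against 18.7% to 22.8%. For the interaction, leaving out a library gave 0 to 1 higher, against 6.67% to 9.94%, and 0 to 1 lower, against 6.22% to 9.41%. Of 480 values of single genes so refitted, 452 kept their direction and call, 10 that were not called turned sign (8 of them the interaction of Insig1), 10 lost their call and 8 gained one. With no filter on low counts, all 40 values did. A total of 3 libraries per group limit what small changes can be called.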
